A study of Rattus norvegicus with 20 samples.

Results

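The 100 transcript clusters described here are those with the highest lean level relative to every other group in subcutaneous tissue of male rats. A row of the array table is 1 transcript cluster, a set of probes summarised together. Each of the 36685 rows was scored on the log2 scale. The score was the lean mean minus the largest of the rosiglitazone, resveratrol and obese means. The members were chosen by these measured values, as the 100 rows with the highest score. The 4 groups, with 5 arrays each, were rosiglitazone, resveratrol, obese and lean control rats, all male, with the tissue given only as subcutaneous. The labels call the rats ZDF in the growth protocol and Zucker in the strain field, and these names were not reconciled. Rosiglitazone, an insulin sensitiser, acts as an agonist of PPAR gamma in fat cells. Resveratrol is a polyphenol found in grapes. Lean control rats ate a standard chow and obese rats a stock diet for 6 weeks. The labels give no dose, route, treatment length, age or leptin receptor genotype, no diet for the treated rats, and no statement that the treated rats were obese. Arrays within a group are labelled as biological replicates.

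Of the 100 rows, 59 carried exactly 1 gene symbol in the platform annotation, 1 carried several and 40 carried none. The 59 stood for 57 genes, because 3 rows named Rpl18 held the same values on every array. A further 2 pairs of unnamed rows were also identical, so the set held 96 distinct profiles. Because the score chose the rows, every difference from lean below is a description without a test. The comparisons among rosiglitazone, resveratrol and obese were tested, but their means entered the score through the largest of them. A row raised in any one of these groups was therefore selected against, and counts of members called in these comparisons are not read against all rows.

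The highest-scoring named members included casein and other milk genes. By roles assigned by hand with the values known, 13 of the 57 named genes were grouped under milk protein or milk fat. These include Oprpn, which was placed there only for its position on chromosome 14. The mammary gland is an epithelial organ whose ducts lie within subcutaneous fat in the rat. Its alveolar cells make caseins, whey proteins and lipid droplets wrapped in membrane. In that epithelium prolactin acts through its receptor on the transcription factor STAT5, which binds near casein genes, and ELF5 works alongside it. Caseins carry calcium phosphate into milk, and alpha-lactalbumin is the subunit that lets galactosyltransferase make lactose.

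Promoter sequences of 3 casein genes and of Cish, a STAT5-induced inhibitor of cytokine receptor signalling, are shown because these 4 members carry the palindrome TTCNNNGAA, the core letters of a STAT5 site, shortly before their start. The sequences are from RefSeq, build GRCr8. They run 5′ to 3′ on the gene's own strand and end at the last base before its start. Each match is in capitals. The first is chr14:20601674-20601823 on the plus strand, the second chr14:20638850-20638999 on the minus strand, the third chr14:20574472-20574621 on the minus strand, and the fourth chr8:116850719-116850968 on the plus strand.
Csn2: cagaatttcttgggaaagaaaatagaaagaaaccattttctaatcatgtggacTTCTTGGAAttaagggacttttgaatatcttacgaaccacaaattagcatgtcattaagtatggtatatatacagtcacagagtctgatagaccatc
Csn1s1: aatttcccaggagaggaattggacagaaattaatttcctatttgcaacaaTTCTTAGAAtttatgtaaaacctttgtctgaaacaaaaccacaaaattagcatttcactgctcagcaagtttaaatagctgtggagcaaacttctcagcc
Csn1s2a: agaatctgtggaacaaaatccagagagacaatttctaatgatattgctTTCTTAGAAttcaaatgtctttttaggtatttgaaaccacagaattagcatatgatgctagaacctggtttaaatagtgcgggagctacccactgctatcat
Cish: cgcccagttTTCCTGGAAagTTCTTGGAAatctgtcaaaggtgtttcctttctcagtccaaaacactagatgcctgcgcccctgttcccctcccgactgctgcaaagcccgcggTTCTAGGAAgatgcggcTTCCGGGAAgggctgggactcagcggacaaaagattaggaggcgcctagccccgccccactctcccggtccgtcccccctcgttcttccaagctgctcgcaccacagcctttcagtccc

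The match began 97 bases before the start of Csn2, 100 before that of Csn1s1 and 102 before that of Csn1s2a. Cish held 4 matches in its 250 bases, and Oprpn and Lao1 held 1 each. The palindrome reads the same on both strands and was searched as whole letters only. In all, 6 of the 45 member genes with a RefSeq promoter held it within 250 bases, and so did 2566 of all 33469 rat promoters (7.67%). The units differ, since a member gene counted if any of its promoters matched, and the 33469 are single promoters of 27457 genes. A match describes the letters and not the binding of a factor. The casein genes Csn2, Csn1s1, Csn1s2a and Csn3 and the opiorphin prepropeptide gene Oprpn all lie on chromosome 14 in GRCr8. Csn2 and Csn1s1 are adjacent protein-coding genes, with 1 gene between Csn1s2a and Csn2 4 between Csn3 and Csn1s2a and 6 between Oprpn and Csn3. Fads1 and Fads2 are adjacent on chromosome 1.

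Across the whole series the array medians lay between 2.42 and 2.81 and the SD within an array between 1.66 and 1.98, so the arrays did not share one distribution. Obese 3 had the highest median and the smallest SD. Adiponectin (Adipoq), a protein made by fat cells, was between 10.55 and 10.96 on all 20 arrays. The summed linear level of 16 adipocyte markers was 13930 to 15920 on the rosiglitazone arrays and 14100 to 15120 on the resveratrol arrays. It was 14760, 15040, 10360, 11990 and 12180 on obese 1 to 5 and 14770, 14740, 12530, 11610 and 12140 on lean 1 to 5. The sum was thus lower on lean 3, 4 and 5 and obese 3 and 4, where the milk genes described below were high, and also on obese 5; its part in the members' values was not tested. No source used here names a strip, scan date or extraction batch, so batch and group cannot be told apart.

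The score ran from 2.63 for Csn2 to 0.84 for row 17696164, with a median of 1.08. Over all rows the median score was -0.21, and 6144 rows (16.7%) scored above 0. Just inside the limit were row 17818525 (0.86), row 17850039 (0.85), the nucleoside transporter gene Slc28a3 (0.85), the chloride cotransporter gene Slc12a2 (0.85) and row 17696164 (0.84). Just outside it were row 17603107 (0.84), the DNA repair nuclease gene Dclre1c (0.84), rows 17680869 and 17686898 (0.83 each) and the integrin gene Itgb3 (0.83). The limit therefore falls in a continuous run of scores. Members had a median group mean of 3.24 in rosiglitazone, 3.05 in resveratrol, 3.83 in obese and 5.25 in lean, on a scale where the median row averaged 2.55. The second-highest group was obese for 68 members, resveratrol for 17 and rosiglitazone for 15.

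Array by array, most members were not high in the whole lean group. Obese 4 stood above the midpoint between the lean mean and the highest other group mean in 59 members and obese 3 in 33, while each of the other 13 non-lean arrays was above it in at most 14. Lean 3, lean 4 and lean 5 were above the midpoint in 96, 92 and 98 members, but lean 1 only in 36 and lean 2 in 21. Being high in lean rats therefore describes the group means of most of these rows and not each lean array. Whether either treatment restored a lean level cannot be read from arrays whose rats are not stated to have been obese.

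The overlap of the arrays shows the same thing. The number of lean arrays above all 15 other arrays was 0 in 5 members, 1 in 18, 2 in 26, 3 in 28, 4 in 21 and 5 in 2. Every lean array above every other array was seen in 15 of all 36685 rows (0.0409%), and the score used the same values. Without lean 2 the count was 16 members and 59 rows (0.161%). The highest non-lean array was obese 4 in 59 members, and any obese array in 74. The lowest lean array was lean 2 in 58 members and lean 1 in 29, and lean 4 was the highest in 59.

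**Figure D1:**
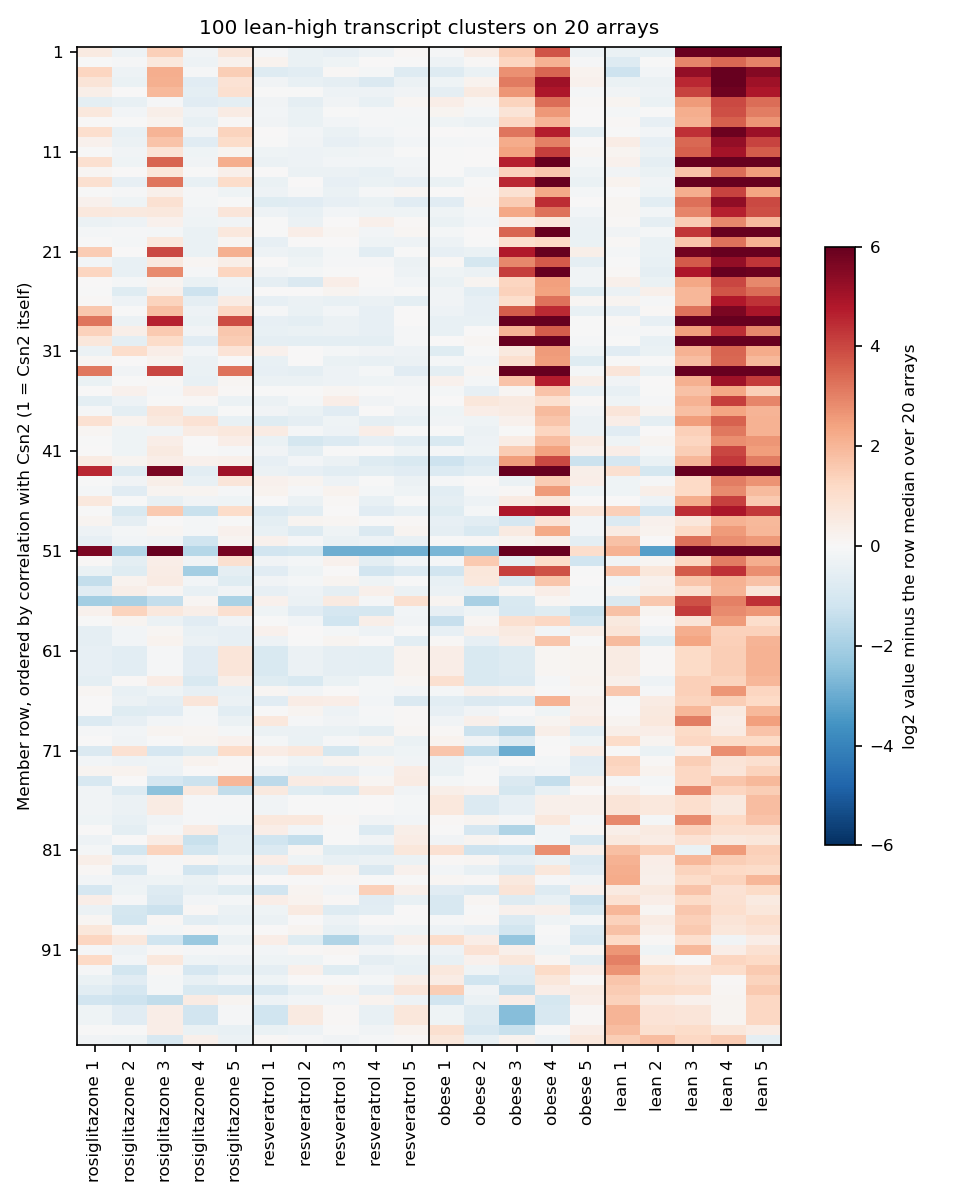
Log2 value minus the row median for the 100 rows (vertical axis, ordered by correlation with Csn2, highest at the top) on the 20 arrays (horizontal axis, rosiglitazone, resveratrol, obese, lean). The upper rows are high on obese 3 and 4 and on lean 3, 4 and 5 and low on lean 1 and 2, and the lower rows are weakly raised on several lean arrays.

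The spread within groups was wide for these rows. The median SD of a member was 0.46 in rosiglitazone, 0.24 in resveratrol, 0.96 in obese and 1.35 in lean, against 0.23, 0.22, 0.36 and 0.27 over all rows. A lean SD above 1 was found in 62 of the 100 members and in 846 of all rows (2.31%). A few very high lean arrays raise both the lean SD and the lean mean that the score used, so this excess partly follows from the rule. Among named members the largest lean SDs were those of Lalba (4.74), Csn3 (4.64) and Csn1s1 (4.62), and the smallest were those of Xbp1 (0.44), Telo2 (0.47) and Egr1 (0.48).

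The 6 milk protein genes and Oprpn were high on lean 3, 4 and 5, and for 6 of these 7 obese 4 was the highest array outside the lean group. Obese 4 exceeded lean 3 for Csn1s2a, Lalba and Oprpn. Csn2, beta-casein, read 2.57, 1.71, 3.46, 1.80 and 2.75 on rosiglitazone arrays 1 to 5, 1.93, 1.60, 1.52, 1.71 and 2.09 on the resveratrol arrays, 1.93, 2.45, 3.60, 5.79 and 1.70 on the obese arrays and 1.61, 1.59, 7.94, 9.10 and 8.36 on the lean arrays. Its lean values thus fell into a pair at the level of the resveratrol arrays and a trio far above every other array. Group means were 2.46 ± 0.72 in rosiglitazone, 1.77 ± 0.24 in resveratrol, 3.09 ± 1.68 in obese and 5.72 ± 3.78 in lean (SD, n = 5 each).

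Csn1s2a, an alpha-S2 casein, read 2.91, 1.45, 5.13, 1.47 and 3.04 on the rosiglitazone arrays, 1.55, 1.94, 1.43, 1.55 and 1.41 on the resveratrol arrays, 1.51, 1.91, 6.46, 8.76 and 1.52 on the obese arrays and 2.14, 1.71, 8.42, 10.16 and 9.17 on the lean arrays. Obese 4 exceeded lean 3, so the groups overlapped within the high arrays too. Csn3, kappa-casein, which caps the casein micelle, read 7.13, 1.83, 8.29, 2.0 and 7.72 on the rosiglitazone arrays, 2.26, 2.11, 2.0, 2.01 and 1.94 on the resveratrol arrays, 1.81, 1.96, 9.78, 10.22 and 2.97 on the obese arrays and 3.60, 1.57, 10.80, 11.18 and 10.88 on the lean arrays. Here rosiglitazone 1, 3 and 5 were also high, while rosiglitazone 2 and 4 lay with the resveratrol arrays.

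Csn1s1, alpha-S1 casein, was the highest of these in rosiglitazone, at 10.07, 2.67, 10.69, 2.73 and 10.20, against 3.28, 3.41, 1.53, 1.5 and 1.54 on the resveratrol arrays, 1.68, 2.05, 11.32, 11.11 and 5.48 on the obese arrays and 6.54, 1.15, 11.39, 11.77 and 11.39 on the lean arrays. Its second-highest group mean was rosiglitazone, and lean 2 was the lowest of all 20 arrays. Lalba, alpha-lactalbumin, read 4.66, 1.07, 6.04, 1.02 and 5.34 on the rosiglitazone arrays, 0.94, 0.86, 1.10, 0.95 and 1.44 on the resveratrol arrays, 1.0, 0.99, 8.35, 9.90 and 1.43 on the obese arrays and 1.52, 0.93, 9.17, 10.44 and 9.90 on the lean arrays. Wap, whey acidic protein, moved over a narrower range, with lean values of 2.21, 1.58, 3.66, 5.01 and 4.05 and no value above 2.82 outside the lean group. Oprpn, grouped here with the milk protein genes for its place on chromosome 14, reached 8.44 and 9.0 on obese 3 and 4 and 7.91, 9.36 and 8.30 on lean 3, 4 and 5, with no other array above 3.12. Both obese arrays exceeded lean 3 and lean 5.

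**Figure D2:**
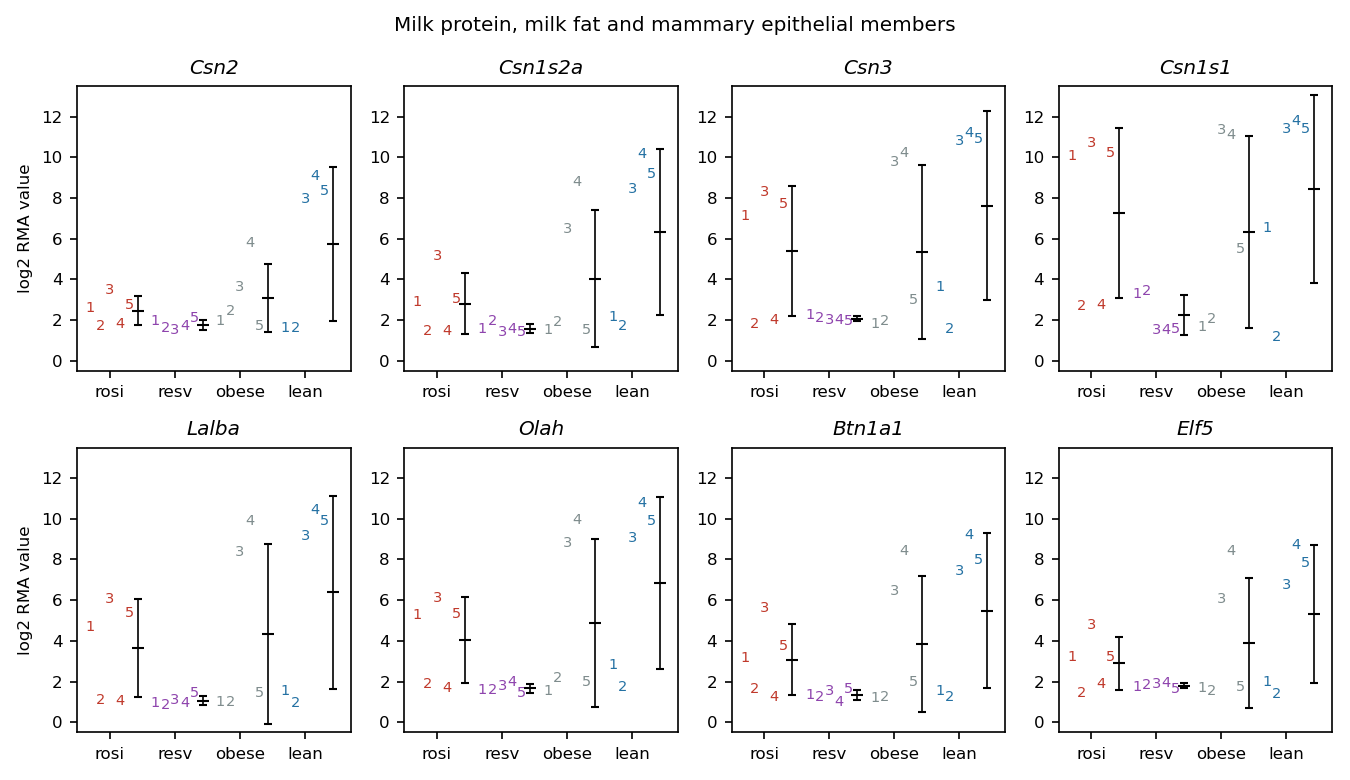
Log2 value of 8 milk and mammary epithelial members, with array numbers as the points and bars for mean ± SD (n = 5) in rosiglitazone (rosi), resveratrol (resv), obese and lean. Lean 3, 4 and 5 and obese 3 and 4 are high in each panel except Csn2, where obese 3 and 4 are intermediate, and every resveratrol array is below 3.5.

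Genes of milk fat and its membrane followed the same arrays. All 6 had obese 4 as their highest array outside the lean group, and for Olah and Btn1a1 only lean 4 exceeded it. Muc15, a membrane mucin, read 2.53, 1.30, 5.06, 1.32 and 3.73 on the rosiglitazone arrays, 1.22, 1.27, 1.41, 1.40 and 1.41 on the resveratrol arrays, 1.53, 1.57, 6.19, 8.30 and 1.44 on the obese arrays and 1.82, 1.03, 8.21, 9.68 and 8.48 on the lean arrays. Olah, the thioesterase that releases medium-chain fatty acids from fatty acid synthase, read 5.26, 1.86, 6.09, 1.69 and 5.34 on the rosiglitazone arrays, 1.60, 1.57, 1.80, 1.97 and 1.43 on the resveratrol arrays, 1.51, 2.18, 8.81, 9.91 and 1.99 on the obese arrays and 2.81, 1.73, 9.08, 10.75 and 9.89 on the lean arrays. Rosiglitazone 1, 3 and 5 again lay between the low and the high arrays. Btn1a1, butyrophilin, which links the droplet to the cell membrane, read 3.15, 1.65, 5.60, 1.23 and 3.75 on the rosiglitazone arrays, 1.35, 1.26, 1.54, 1.01 and 1.63 on the resveratrol arrays, 1.17, 1.26, 6.43, 8.41 and 2.0 on the obese arrays and 1.54, 1.24, 7.45, 9.22 and 7.97 on the lean arrays.

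Mfge8, the droplet-coating lactadherin, had a high level everywhere, with means of 7.31 ± 0.36 in rosiglitazone, 7.12 ± 0.24 in resveratrol, 7.83 ± 1.04 in obese and 8.92 ± 1.95 in lean. The desaturases Fads1 and Fads2, which make long polyunsaturated fatty acids, averaged 6.12 ± 0.60 and 4.72 ± 0.96 in rosiglitazone, 6.54 ± 0.10 and 3.63 ± 0.22 in resveratrol, 6.96 ± 1.40 and 5.22 ± 2.47 in obese and 8.33 ± 1.82 and 6.52 ± 2.77 in lean. Of 16 measured genes of a fatty acid and triglyceride synthesis list that holds both, 9 were higher in rosiglitazone than in obese in limma's test and 0 were lower, with 8.90% of all rows higher and 6.12% lower. The median difference of the list was 0.69, against -0.08 over all rows, and neither desaturase was among the 9. With resveratrol against obese 0 of the 16 passed.

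The 10 epithelial members included transcription factor, adhesion and glycosylation genes, and all 10 had obese 4 as the highest array outside the lean group. Elf5, the transcription factor of alveolar cells, read 3.23, 1.46, 4.75, 1.86 and 3.20 on the rosiglitazone arrays, 1.72, 1.82, 1.89, 1.95 and 1.64 on the resveratrol arrays, 1.68, 1.55, 6.05, 8.43 and 1.73 on the obese arrays and 1.98, 1.37, 6.75, 8.69 and 7.81 on the lean arrays. Epcam, an epithelial adhesion molecule, read 1.37, 1.18, 2.25, 1.17 and 1.58 on the rosiglitazone arrays, 1.15, 1.09, 1.17, 1.21 and 1.40 on the resveratrol arrays, 1.37, 1.42, 3.83, 5.57 and 1.51 on the obese arrays and 1.58, 1.07, 4.97, 6.42 and 5.03 on the lean arrays. Cells carrying these genes and RNA per such cell cannot be told apart in bulk tissue. The other 8 were Cd24, a surface glycoprotein gene, the tight junction gene Cldn8, the channel-activating protease gene Prss8, Galnt3, which starts O-glycans, the sialyltransferase genes St3gal4 and St6galnac2, Ceacam4 and Rhpn2. Over the 10, group means spanned 1.40 to 4.54 for rosiglitazone, 1.20 to 4.60 for resveratrol, 2.05 to 4.35 for obese and 3.08 to 5.64 for lean rats.

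A marker list of mammary and other epithelium, drawn up with earlier results of these data known, had 18 of its 21 genes measured. Of these, 7 were members (Epcam, Csn1s1, Csn2, Csn3, Wap, Lalba and Elf5), and 14 had their highest group mean in lean. The 7 members had it by the rule, and 16.7% of all rows had their highest group mean in lean. The summed linear level of the list was 97.9 to 2189 on the rosiglitazone arrays, 91.1 to 108.2 on the resveratrol arrays, 101.5 to 5187 on the obese arrays and 95.4 to 8723 on the lean arrays. It was 5639, 8723 and 6391 on lean 3, 4 and 5 but 200 and 95.4 on lean 1 and 2. These sums are made mostly of the members themselves. Over the 11 list genes that are not members the sum was 72.3 to 110.4 on the rosiglitazone arrays and 68.8 to 84.2 on the resveratrol arrays. It was 79.8, 80.6, 167, 372 and 86.7 on the obese arrays and 77.0, 77.7, 194, 448.4 and 259.8 on the lean arrays, so the same 5 arrays were the highest. The keratin gene Krt19, of simple epithelium, was 2.04 to 4.0 on the rosiglitazone arrays and 2.08 to 2.35 on the resveratrol arrays, with 4.66 and 6.59 on obese 3 and 4 and 5.08, 6.90 and 5.53 on lean 3, 4 and 5. Krt15, a keratin of the basal layer on the keratinocyte list, was 4.98 on rosiglitazone 3, 5.10 and 5.88 on obese 3 and 4 and 4.68 on lean 4, with no other array above 3.49. Krt8 was 2.75 to 3.84 on the rosiglitazone arrays, 2.78 to 3.38 on the resveratrol arrays, 2.85 to 4.04 on the obese arrays and 2.75 to 4.47 on the lean arrays. The part that the amount of epithelium on each array has in the members' lean means was not tested. In limma's test of rosiglitazone against obese, 0 of the 18 were higher and 1, the secreted protease inhibitor gene Wfdc2, was lower. Of all rows, 8.90% were higher and 6.12% lower. The list median was -0.51, against -0.08 over all rows. The rule selected the 7 members against being raised in rosiglitazone, so these values are not read as a result about the list.

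Sums of the skin and muscle marker lists set 1 array apart. Rosiglitazone 3 reached 801.5 for 25 skeletal muscle genes, against 126.5 to 144.5 on the other rosiglitazone arrays. For 18 keratinocyte and hair follicle genes it was 295.2, and no other array exceeded 158.2. Lean 3 had a muscle sum of 272.9, the highest of the other 19 arrays. The part of these tissues in any member's value was not tested. Without rosiglitazone 3, 96 of the 100 rows remained members.

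Among the 11 members for ion and solute transport and secretion, 10 had r above 0.8 with Csn2 in the co-variation described below. Across the group the array medians were 2.98, 2.64, 3.15, 2.81 and 3.57 on the rosiglitazone arrays, 2.82, 2.57, 2.81, 2.51 and 2.71 on the resveratrol arrays, 2.95, 3.0, 3.93, 6.42 and 2.65 on the obese arrays and 2.73, 2.95, 5.13, 7.25 and 6.12 on the lean arrays. Lean 4 and obese 4 were the highest. Aqp3, a water and glycerol channel, averaged 3.15 ± 0.96 in rosiglitazone, 2.41 ± 0.14 in resveratrol, 4.09 ± 2.24 in obese and 5.45 ± 2.90 in lean. Car2, a cytosolic carbonic anhydrase, averaged 4.49 ± 0.39 in rosiglitazone, 4.25 ± 0.15 in resveratrol, 5.40 ± 2.12 in obese and 6.96 ± 2.61 in lean. Car6, the secreted carbonic anhydrase of saliva and milk, was 5.79 to 6.13 on the rosiglitazone arrays and 4.73 to 5.46 on the resveratrol arrays. It reached 8.11 and 9.60 on obese 3 and 4 and 7.63, 9.87 and 8.73 on lean 3, 4 and 5. The others were Slc34a2 (phosphate), Slc12a2 (sodium, potassium and chloride), Slc28a3 (nucleosides), Slc22a3 (organic cations), Kcnj15 (potassium), Ano1 (chloride), Tfrc, the transferrin receptor, and Duox1, an oxidase that makes hydrogen peroxide. Slc22a3, with 4.43 on lean 1 and 3.73 on lean 3, was the one of the 11 that did not track Csn2.

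Of the immune and lipocalin members, Lbp, Ly6al and the amino acid oxidase gene Lao1 followed the milk genes, with r above 0.8 with Csn2, and Obp3, Cxcl13 and Irf4 did not. Lbp, which binds bacterial lipopolysaccharide, read 4.79, 3.19, 5.67, 3.43 and 4.97 on the rosiglitazone arrays, 2.71, 2.88, 3.57, 3.37 and 2.73 on the resveratrol arrays, 2.72, 3.10, 6.25, 6.98 and 3.73 on the obese arrays and 2.27, 3.34, 8.79, 10.12 and 9.0 on the lean arrays. Lean 3, 4 and 5 were above all other arrays, and lean 1 was the lowest of the 20. Ly6al, of the lymphocyte antigen 6 family, was at most 1.74 on all rosiglitazone and resveratrol arrays and on lean 1 and 2, and reached 4.58 and 7.21 on obese 3 and 4 and 5.41, 8.23 and 7.38 on lean 3, 4 and 5.

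Obp3, an odorant-binding lipocalin, was raised in lean 2 as well. It read 1.79, 1.88, 2.38, 3.93 and 1.93 on the rosiglitazone arrays, 4.07, 3.47, 4.34, 3.71 and 4.79 on the resveratrol arrays, 4.0, 1.87, 2.89, 3.93 and 3.70 on the obese arrays and 2.97, 5.44, 7.66, 6.85 and 8.20 on the lean arrays. All lean arrays except lean 1 exceeded every other array. Its difference between rosiglitazone and resveratrol was -1.70 (SE 0.72, 95% confidence interval -3.19 to -0.20), with an adjusted p of 0.375 in limma. Cxcl13, a chemokine that draws B cells, averaged 4.89 ± 1.17 in rosiglitazone, 5.61 ± 0.69 in resveratrol, 5.58 ± 0.59 in obese and 6.94 ± 1.13 in lean. Irf4, a transcription factor of lymphoid cells and adipocytes, averaged 3.18 ± 0.34 in rosiglitazone, 3.57 ± 0.18 in resveratrol, 3.47 ± 0.29 in obese and 4.62 ± 0.90 in lean.

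A smaller number of members were raised on nearly all lean arrays. In 21 members 4 of the 5 lean arrays exceeded all other arrays. This count was not made over all rows, and the score used the same values, so it is a description only. The exception was lean 2 in 14 of the 21 members, lean 1 in 3, lean 4 in 3 and lean 5 in 1. The 11 named genes were Frzb, Gprin3, Acvr1c, Sytl5, Hpd, Hcar2, B3galt1, Xbp1 and Telo2, with lean 2 as the exception, and Obp3 and Irf4, with lean 1.

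Frzb, a secreted antagonist of Wnt ligands, read 3.46, 3.82, 3.78, 2.79 and 4.15 on the rosiglitazone arrays, 4.24, 3.88, 3.59, 3.68 and 3.52 on the resveratrol arrays, 3.97, 4.05, 4.14, 4.23 and 3.39 on the obese arrays and 5.72, 3.98, 7.29, 6.76 and 6.59 on the lean arrays. Lean 2 lay inside the range of the other groups. Acvr1c, the activin receptor ALK7 of fat cells, read 6.18, 5.59, 5.73, 5.94 and 5.57 on the rosiglitazone arrays, 6.24, 5.57, 5.37, 5.45 and 5.46 on the resveratrol arrays, 5.91, 5.92, 5.34, 5.45 and 5.01 on the obese arrays and 7.91, 6.20, 7.83, 7.31 and 7.15 on the lean arrays. Lean 2 missed the highest of the other arrays, resveratrol 1, by 0.04. It was the one member among 16 measured adipocyte markers, whose summed level was lowest on obese 3.

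Hcar2, the receptor for niacin and the ketone body beta-hydroxybutyrate that restrains lipolysis, read 3.77, 3.07, 2.81, 4.18 and 3.77 on the rosiglitazone arrays, 3.86, 4.64, 3.34, 3.49 and 4.13 on the resveratrol arrays, 3.14, 4.10, 4.37, 4.42 and 3.22 on the obese arrays and 6.10, 4.24, 5.74, 5.11 and 4.78 on the lean arrays. Lean 1 was the highest here, unlike in the milk genes. Xbp1, a transcription factor of the unfolded protein response in secretory cells, read 7.65, 7.42, 7.60, 7.82 and 7.91 on the rosiglitazone arrays, 7.54, 7.26, 7.56, 7.79 and 7.24 on the resveratrol arrays, 7.83, 7.42, 6.85, 7.63 and 7.38 on the obese arrays and 8.73, 7.82, 8.86, 8.78 and 8.79 on the lean arrays. Its 4 high lean values lay between 8.73 and 8.86. Hpd, of tyrosine breakdown, averaged 2.92 ± 0.25 in rosiglitazone, 3.14 ± 0.13 in resveratrol, 3.29 ± 0.17 in obese and 4.59 ± 0.97 in lean. Sytl5, of the synaptotagmin-like family of vesicle proteins, averaged 1.19 ± 0.13 in rosiglitazone, 1.43 ± 0.03 in resveratrol, 1.51 ± 0.30 in obese and 2.82 ± 0.75 in lean, which is near the median row level even in lean. The glycosyltransferase gene B3galt1 averaged 5.07 ± 0.22 in rosiglitazone, 5.13 ± 0.19 in resveratrol, 4.90 ± 0.27 in obese and 6.08 ± 0.55 in lean.

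Among the remaining members of signalling and metabolism, the glycolytic gene Aldoc followed Csn2 (r = 0.95) and Ptpn4, a tyrosine phosphatase gene, did not (r = 0.04). Ptpn4 averaged 5.73 ± 0.33 in rosiglitazone, 5.47 ± 0.24 in resveratrol, 5.04 ± 0.42 in obese and 6.64 ± 0.61 in lean. Rpl18, a ribosomal protein gene, averaged 7.31 ± 0.59 in rosiglitazone, 7.11 ± 0.42 in resveratrol, 7.33 ± 0.59 in obese and 8.59 ± 0.80 in lean on each of its 3 identical rows. Telo2, Cth and the histamine receptor gene Hrh3 complete the group. The 41 rows without a single symbol had median group means of 3.26 in rosiglitazone, 3.22 in resveratrol, 3.71 in obese and 5.07 in lean, and 11 of them had r above 0.8 with Csn2.

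Both rows with complete separation carry no gene symbol. Row 17827365 read 9.03, 7.79, 8.97, 8.25 and 8.44 on the rosiglitazone arrays, 8.57, 8.91, 8.61, 8.91 and 8.90 on the resveratrol arrays, 8.84, 8.95, 8.08, 8.62 and 8.79 on the obese arrays and 10.29, 9.39, 10.35, 9.68 and 9.93 on the lean arrays. Its lowest lean array was 0.36 above the highest other array. Row 17696164, the last row inside the limit, had a gap of 0.01 between lean 1 and obese 4.

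**Figure D3:**
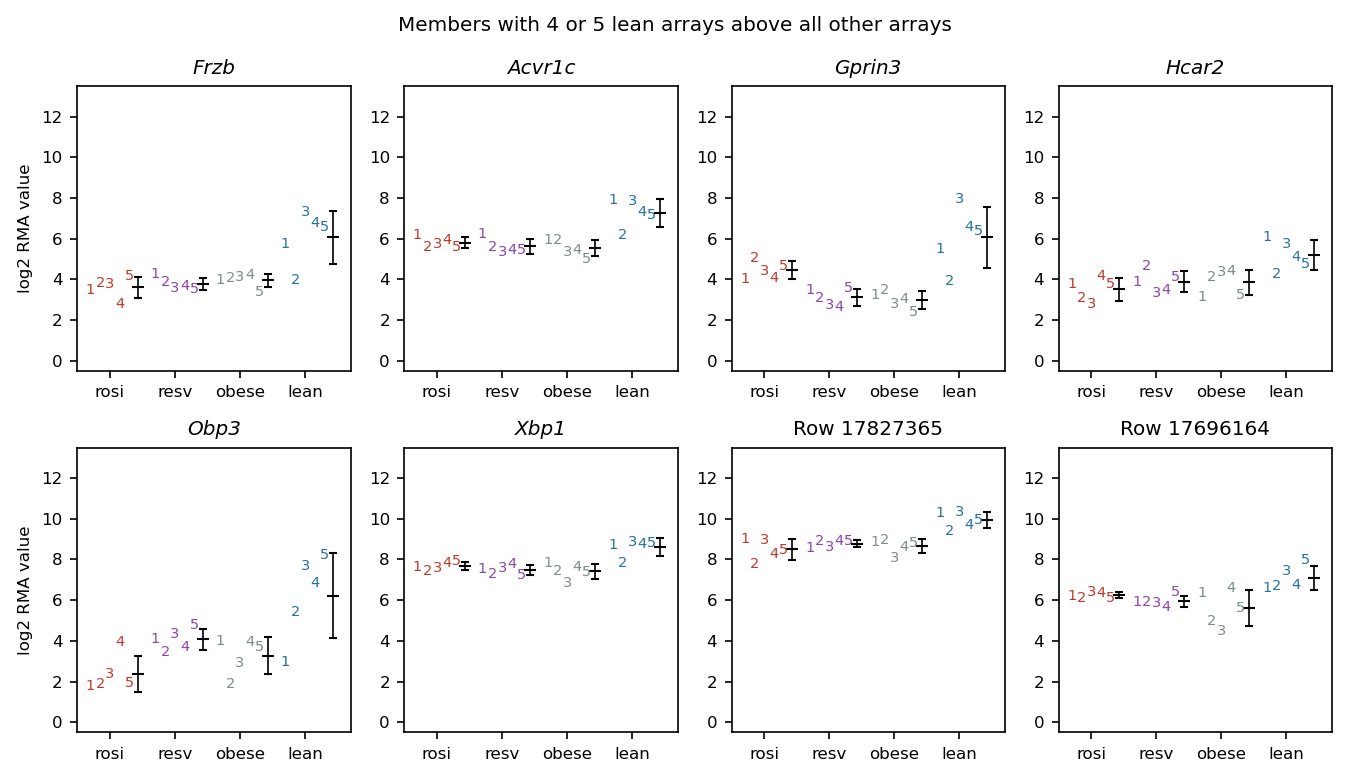
Log2 value of 8 members with 4 or 5 lean arrays above all others, with array numbers as points and bars for mean ± SD (n = 5) in rosiglitazone (rosi), resveratrol (resv), obese and lean. Lean 2 is the lowest lean array in 6 of the 8 panels, and in Obp3 and row 17696164 it is lean 1.

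The 4 regulators differed from one another in the arrays on which they were high. Cish read 3.36, 3.70, 4.07, 3.55 and 3.40 on the rosiglitazone arrays, 3.58, 3.85, 4.03, 3.90 and 3.24 on the resveratrol arrays, 3.97, 3.39, 4.28, 5.56 and 3.87 on the obese arrays and 5.78, 3.16, 6.25, 5.32 and 5.92 on the lean arrays. Lean 1 was high for Cish, while of the caseins that share its motif Csn2 and Csn1s2a were low there, at 1.61 and 2.14, and Csn1s1 was 6.54. Obese 4 was high for Cish and for the caseins. Prox1, the transcription factor of lymphatic endothelium, averaged 2.98 ± 0.84 in rosiglitazone, 1.69 ± 0.17 in resveratrol, 3.09 ± 1.74 in obese and 3.97 ± 1.95 in lean. Its r with Csn2 was above 0.8, and of 10 measured endothelial markers it was the one member. Egr1, an immediate early gene that responds within minutes to handling and growth signals, averaged 5.34 ± 0.31 in rosiglitazone, 6.09 ± 0.92 in resveratrol, 5.72 ± 0.72 in obese and 6.96 ± 0.48 in lean.

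Co-variation was computed from deviations from the group means over the 20 arrays and is given as a description, since the arrays share scaling. The members, Csn2 included, were chosen by their lean means, which a few very high lean arrays can raise. Counts of members set beside counts of other rows are therefore partly fixed by that choice. Of the other 99 members, 46 had r above 0.8 with Csn2, against 147 of 36585 other rows (0.402%). Over the 15 non-lean arrays, which the lean mean does not touch but whose group means entered the score, the counts were 41 members and 165 other rows (0.451%). Counting Csn2 itself, 36 of the 57 named genes belonged to this group. By role these were 6 of the 7 milk protein genes with Oprpn, 6 of 6 milk fat genes, 9 of 10 epithelial genes, 10 of 11 transport genes, 3 of 6 immune genes, 1 of 4 regulators and 1 of 13 genes of signalling and metabolism. The roles were assigned by hand with the values known, so this split is a description only. Another 33 members had r between -0.5 and 0.5. The named rows outside the set that were most like Csn2 over the 20 arrays were Car8 (r = 0.96), the epithelial cadherin gene Cdh1 (0.95), Retreg1 (0.94), and the mucin gene Muc1, the glucose transporter gene Slc2a1, the transcription factor gene Gata3 and the claudin gene Cldn4 (0.93 each).

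**Figure D4:**
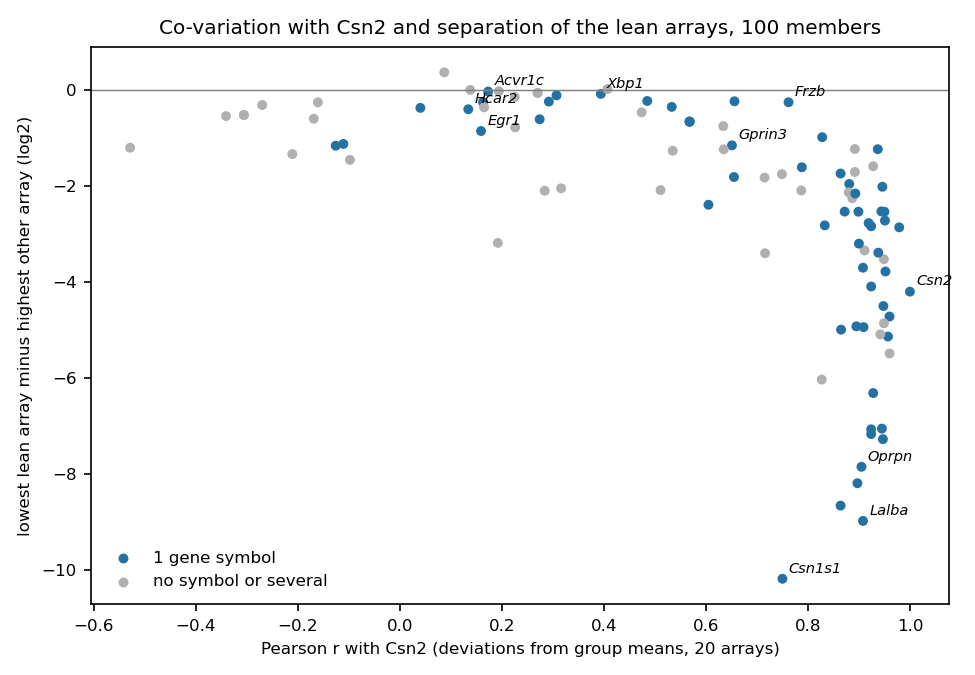
Pearson r with Csn2 (horizontal axis, deviations from group means, 20 arrays) against the lowest lean array minus the highest other array in log2 units (vertical axis) for the 100 members, with named genes in blue. Members with r above 0.8 lie between about -1 and -9 on the vertical axis, and the members at or near 0 have lower r.

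The tested comparisons among the 3 non-lean groups made few calls. In limma over all 36685 rows, rosiglitazone differed from obese in 1 of the 100 members, where 15.0% of all rows were called. That member was Gprin3, of a family of G protein-regulated inducers of neurite outgrowth. It read 4.01, 5.06, 4.39, 4.07 and 4.68 on the rosiglitazone arrays, 3.50, 3.07, 2.75, 2.66 and 3.57 on the resveratrol arrays, 3.23, 3.49, 2.77, 3.02 and 2.39 on the obese arrays and 5.51, 3.90, 7.95, 6.56 and 6.38 on the lean arrays. All 5 rosiglitazone values exceeded all 5 obese values. Gprin3 was higher in rosiglitazone than in obese by 1.46 log2 units (SE 0.48, 95% confidence interval 0.46 to 2.46), which is 2.76-fold, with a Benjamini-Hochberg adjusted p of 0.0453 from limma. The call was lost in 15 of the 20 fits without 1 array and was kept without obese 1, obese 2, lean 1, lean 2 or lean 3, with differences of 1.31 to 1.59 over the 20 fits. The limma adjusted p of Gprin3 also missed the threshold after quantile normalisation (0.0575), with array weights (0.118), with the replicate number as a block (0.0711) and with the array SD as a covariate (0.413). The rosiglitazone mean, 4.44 ± 0.44, stayed below the lean mean, 6.06 ± 1.49.

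Resveratrol differed from obese in 0 of the 100 members, and in 0 of all rows (0%), by limma. The count over all rows rested on single arrays and settings: leaving out obese 1 gave 3314 rows and leaving out obese 4 gave 2301. It became 1074 when lean 1 was dropped, 232 when lean 2 was and 64 after centring, each of 36685 rows. After filtering dim rows it was 147 of 18343 rows, with 83 members tested. Among members it was 1 without obese 1 and 0 in each of these other fits. At an unadjusted limma p under 0.05 there were 3 members, beside 9234 of all 36685 rows. The smallest adjusted p of a member in limma was 0.145. Rosiglitazone differed from resveratrol in 0 of the 100 members, where 2.20% of all rows were called. With only these groups in the fit 6 members were called, and so were 1422 of all 36685 rows. Gprin3, Cd24, Car6 and rows 17736456 and 17603109 were higher in rosiglitazone and Obp3 was lower. In the fit of all 4 groups, 3 members had an unadjusted limma p under 0.05, beside 3696 of all 36685 rows. These members were Obp3, Gprin3 and Csn1s1. The first 2 comparisons share the obese arrays. For Csn1s1 the difference between rosiglitazone and resveratrol was 5.02 (95% confidence interval 0.35 to 9.69, adjusted p of 0.428 by limma), with rosiglitazone 1, 3 and 5 above all resveratrol arrays and rosiglitazone 2 and 4 inside their range.

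These intervals were wide. The median standard error of a member was 0.51, against 0.19 over all rows, and the median half-width of the 95% interval was 1.07. This error pools the spread of all 4 groups, lean included. With only the compared groups in the fit the median standard error of a member was 0.42 for rosiglitazone against obese, 0.40 for resveratrol against obese and 0.23 for rosiglitazone against resveratrol. The interval lay within 2-fold of no change for 18 members with rosiglitazone against obese, 26 with resveratrol against obese and 24 with rosiglitazone against resveratrol. Xbp1 was one of these, at 0.25 (-0.16 to 0.67) with rosiglitazone and 0.06 (-0.36 to 0.47) with resveratrol, each against obese. For Lalba the corresponding values were -0.71 (-4.81 to 3.40) and -3.28 (-7.38 to 0.83). The first interval allowed a large change in either direction, and the second a large fall but not a 2-fold rise. Median differences over the members were -0.31 for rosiglitazone against obese, -0.34 for resveratrol against obese and 0.14 for rosiglitazone against resveratrol, against -0.08, -0.04 and -0.02 over all rows. The first of these rests on obese 4: without that array it was 0.02, with 51 members above 0 in place of 22, and after centring each array it was -0.14, with the median over all rows at 0.09.

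Membership depended on a few arrays. When the score was computed again without 1 rosiglitazone or resveratrol array, 94 to 98 of the 100 rows remained. Without obese 4 there were 75, and without another obese array 81 to 86. Without lean 4 there were 53, without lean 1 or lean 5 there were 74 each, without lean 2 there were 81 and without lean 3 there were 80. Leaving out lean 4 removed 30 named rows, among them Btn1a1, Elf5, Wap, Csn1s1 and Mfge8, while Csn2, Csn1s2a, Csn3 and Lalba remained. With group medians in place of means 62 rows remained, and Hcar2, Irf4, Xbp1, Telo2 and Egr1 were among those lost.

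**Figure D5:**
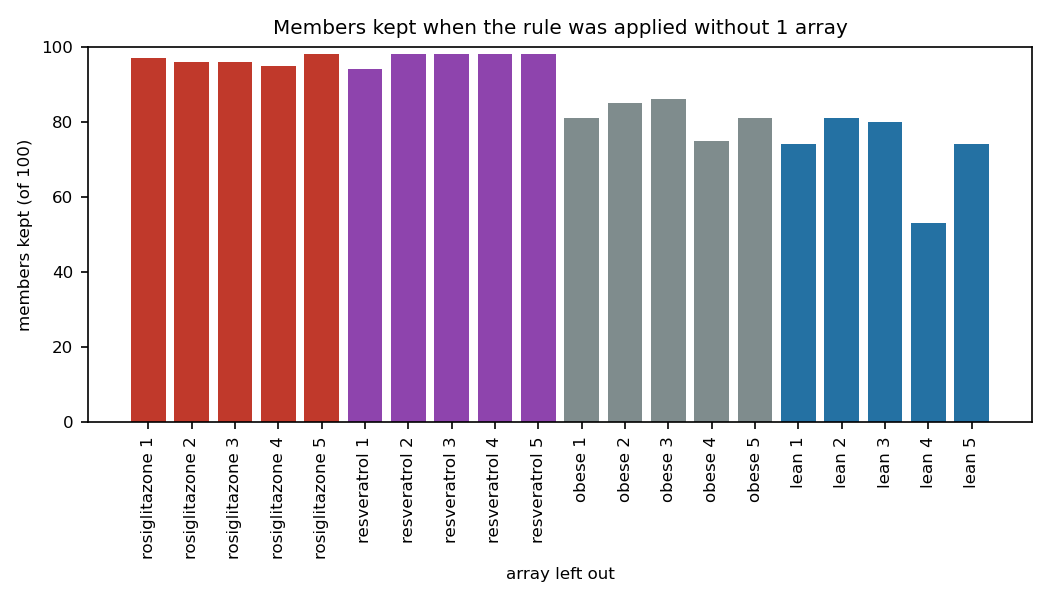
Number of the 100 members that remained among the 100 highest scores (vertical axis) when each array was left out in turn (horizontal axis), coloured by group. The bar for lean 4 is the lowest at 53, and the rosiglitazone and resveratrol bars are all between 94 and 98.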

How the data were processed

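Subcutaneous tissue RNA of 20 male rats was hybridised to Rat Gene 2.1 ST arrays, 1 array per sample. The authors deposited log2 values made with RMA, per the submitters' processing notes; RMA corrects background, normalises between arrays and summarises probes. No source used here gives the software, its settings or the annotation. The deposited table had 0 missing values and was used unchanged. The number of arrays limits the precision.

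Groups were taken from the labels. Symbols came from GEO's platform annotation, which can be old; 14824 of 36685 rows had 1 symbol, 829 several and 21032 none. Group means were fitted to all rows and all 20 arrays in 1 linear model with limma 3.58.1 (lmFit, eBayes) in R 4.3.3, with Benjamini-Hochberg adjustment over all rows and calls at an adjusted p under 0.05. The code was tested on simulated data. Figures used matplotlib 3.10.9 in Python 3.11.15.

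The members, marker lists and roles were chosen with earlier results of these data known. By rule the text names the 12 highest scores, members of the lists, called members, the 3 largest and smallest lean SDs, the 5 widest gaps and the rows beside the limit; other names were chosen after values were seen. Alternatives were quantile normalisation, centring, a filter on dim rows, another prior, array weights, fewer groups, the replicate number, array SD, group medians and each array left out. Correlations of same-numbered arrays between groups took both signs. They ran from -0.44 for obese 1 with lean 1 to 0.32 for obese 4 with lean 4.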

Additional observations from a re-analysis of the deposited data

Results flagged for a closer look

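Dixon's criterion was applied to 88 groups of 5 arrays, from the 22 members followed in most detail. In 5 groups, 1 array lay far from the other 4. About 1 in 20, or 4.4 groups, would be usual by chance for independent, normally distributed groups. Many of these members vary together over the same arrays, so the 5 groups are not read against that number. Xbp1 was 7.82 on lean 2, with the other lean arrays at 8.73 to 8.86. Obp3 was 3.93 on rosiglitazone 4, with the others at 1.79 to 2.38. Wap was 2.41 on rosiglitazone 3, with the others at 1.80 to 1.92, and this array also had the highest sums of muscle and keratinocyte markers; their part in the value was not tested. Acvr1c was 6.24 on resveratrol 1, with the others at 5.37 to 5.57. Csn1s2a was 1.94 on resveratrol 2, with the others at 1.41 to 1.55. Each fell on a different array.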

How the results depend on the processing

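For rosiglitazone against obese, 1 member was called as reported, 0 after quantile normalisation, 2 after centring each array on its median (Gprin3 and Ptpn4), and 0 with array weights, with the replicate number as a block or with the array SD as a covariate. Without 1 array the count ran from 0 to 2. Gprin3 kept its direction throughout, with adjusted p-values in limma of 0.0575 (quantile), 0.118 (weights), 0.0711 (replicate block) and 0.413 (array SD). For rosiglitazone against resveratrol, 6 members were called when only the compared groups entered the fit (5 higher, 1 lower, Obp3), beside 1422 of all 36685 rows. Without 1 array the count of members was 0 to 1. For resveratrol against obese the count stayed at 0, except 1 without obese 1, giving 0 to 1. Correlations of same-numbered arrays between groups took both signs, and the replicate block changed no other count of called members. Members kept were 93 after quantile normalisation, 89 after centring, 83 without dim rows, 62 with group medians and 53 to 98 without 1 array; complete separation of lean was seen in 2 to 16 members. The cause of these changes was not tested. The median difference over the members for rosiglitazone against obese changed sign without obese 4, to 0.015, and ran from -0.492 to 0.015 without 1 array. In the other fits it kept its sign, as did the medians of the other comparisons and the difference of Gprin3, while the median over all rows for rosiglitazone against obese was above 0 after quantile normalisation (0.003), centring (0.09) and the filter on dim rows (0.15).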
